A study of Mus musculus with 36 samples.

Results

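Aminoacyl-tRNA synthetases, the enzymes that load each tRNA with its amino acid, were followed through the response of spleen dendritic cells (DCs) to poly IC. The members were 36 genes, 20 for the cytosolic and 16 for the mitochondrial enzymes, found on the arrays by their annotated symbol or by its current form ending in 1. Of these, 33 had a probe, and 28 (17 cytosolic, 11 mitochondrial) passed the detection filter and were tested among 9606 genes. Cars and Yars (cytosolic) and Hars2, Nars2 and Yars2 (mitochondrial) fell below the filter, which kept probes detected on at least 3 of 36 arrays. No probe was found under the symbols Dars, Cars2 and Tars2. The filter keeps a gene that is detected in only some groups, so the 28 do not stand for all members, and 21 of them (15 cytosolic, 6 mitochondrial) were detected on every array.

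A synthetase joins its amino acid to the matching tRNA at the cost of ATP, and the ribosome then uses the charged tRNA. Mammals keep one set of these enzymes for the cytosol and another, encoded in the nucleus under gene names ending in 2, for the mitochondrial ribosome. Gars and Kars each supply both compartments, and mitochondria make glutaminyl-tRNA by way of Ears2 and an amidotransferase instead of a glutaminyl enzyme of their own. Several cytosolic enzymes sit together in a multi-tRNA synthetase complex on the scaffolds Aimp1, Aimp2 and Eef1e1. Many cytosolic synthetase genes are known targets of ATF4, the factor of the amino acid response, and Wars, the tryptophanyl enzyme, is also known as an interferon-inducible gene.

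The DCs were sorted from spleens of C57BL/6 mice as CD11chi CD3- DX5- B220- cells. IFNAR-/- DCs, which lack the type I IFN receptor, were taken 14 h (n = 3 samples) and 4 h (n = 4) after poly IC, PRR-/- DCs, which lack both poly IC receptors MDA5 and TLR3, at 4 h (n = 4), and WT DCs at 14 h (n = 6) and 4 h (n = 8). They were compared with unstimulated DCs (n = 8), whose labels give the treatment as none and name no genotype. The study describes its negative controls as WT and KO DCs of chimeras given PBS, and DCs of PRR-/- mice given poly IC, which it pooled, so the unstimulated group may mix genotypes. In the study's design the KO cells came from mixed bone marrow chimeras, so they shared a host with WT cells that could answer 50 µg of poly IC given intraperitoneally. The first and second arrays of the unstimulated, PRR-/- and IFNAR-/- 4 h groups differed by less than any other pair and were averaged, which leaves 33 samples from 36 arrays. A figure legend of the study describes a sample as a pool of several mice. The labels do not say whether samples share mice or a sort, so p-values measure the spread between these samples. In sorted bulk cells, fewer cells of a type and less RNA per cell cannot be told apart.

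Between 40.6% and 48.0% of probes were detected per array, and values are log2 bead signals with a floor at 6.49, the detection limit. The transcript of the missing receptor MDA5, Ifih1, passed detection on 0 of 5 PRR-/- and 8 of 8 WT arrays at 4 h, and Tlr3 on 1 of 5 and 8 of 8. The Ifnar1 probe was detected on no array of any group and checks nothing. Conventional DC markers were present in all groups, 6 of 12 of them on every array, although Flt3 was detected on 1 array only. Red pulp macrophage markers (10 of 11 tested, Cd5l detected nowhere) moved with the groups. Their mean level was 9.44 to 9.52 in IFNAR-/- DCs at 14 h, 7.79 to 8.53 in WT DCs at 14 h, 7.82 to 8.55 in IFNAR-/-, 9.21 to 10.1 in PRR-/- and 8.12 to 9.45 in WT DCs at 4 h, and 7.21 to 8.26 in unstimulated DCs. In WT DCs at 4 h against unstimulated DCs, 4 of 6 B cell, 2 of 5 NK cell and 1 of 4 plasma cell markers were lower, 2 of 4 plasmacytoid DC and 3 of 5 erythroid markers were higher, and 0 of 6 T cell markers passed. The part of these markers in the results below was not tested.

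The first question was what poly IC does to the synthetase genes of WT DCs. At 4 h most of them were lower than in unstimulated DCs, with Aars, the alanyl enzyme, and Wars as the exceptions that rose. Of the 28 genes tested, 20 fell and 2 rose (limma, Benjamini-Hochberg adjusted p under 0.05), against 29.6% and 16.9% of all 9606 genes. Of the 16 cytosolic enzymes without Wars, 9 fell (56.2%) and 1 rose, with a median log2 difference of -0.30. All 11 mitochondrial enzymes tested fell, with a median of -0.35, against -0.02 over all genes. This count takes in Aars2, Pars2 and Wars2, which were not detected in WT DCs at 4 h and passed the filter through other groups, so they could only fall. Of the members detected on every array, 6 of 6 mitochondrial enzymes fell (median -0.45), as did 8 of 14 cytosolic enzymes without Wars (median -0.46), of which 1 rose. Among the 5824 genes detected on every array, 36.9% fell and 20.5% rose, with a median of -0.14. No change of a member reached the 2-fold limit that the study used, which 7.19% of all genes did. The plot of log2 differences at 4 h gives every member.

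**Figure D1:**
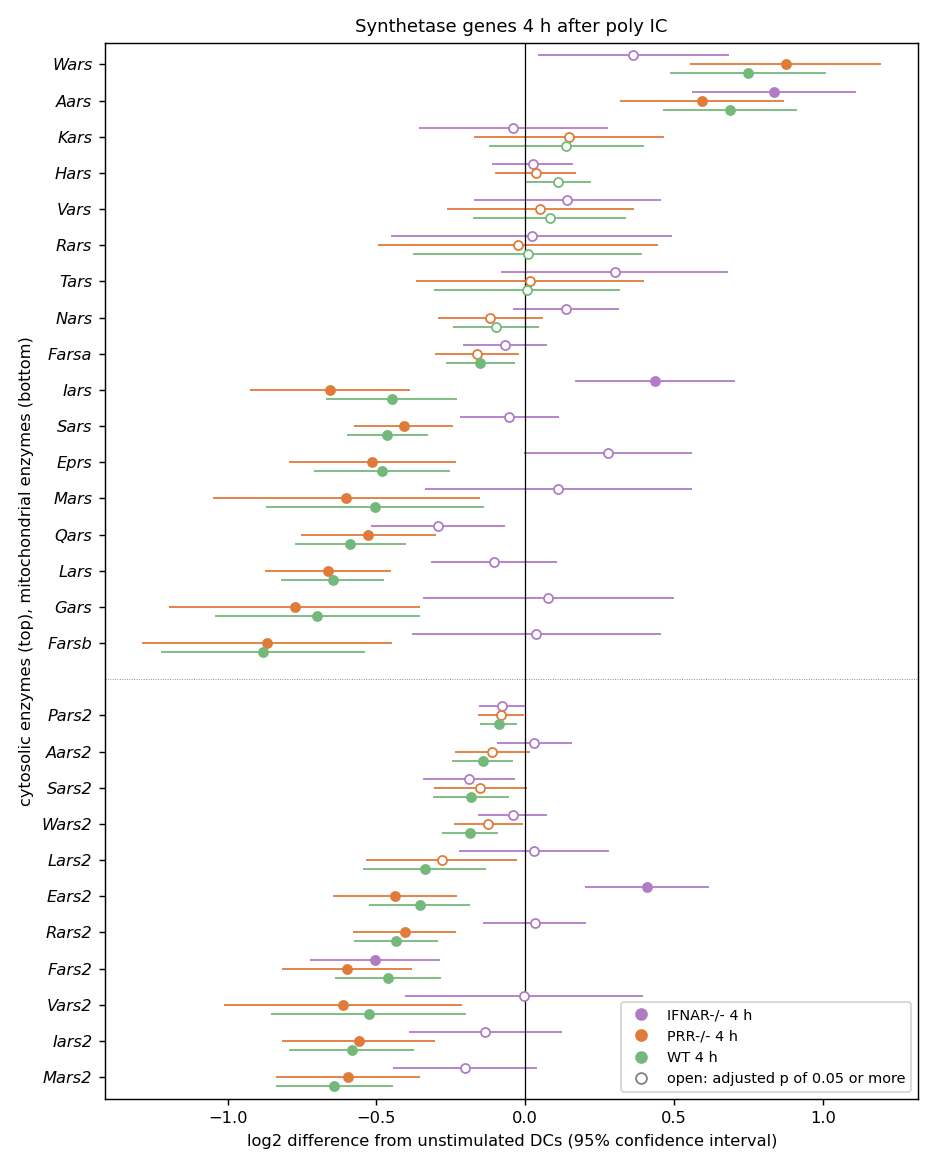
Log2 difference from unstimulated DCs (x axis, with 95% confidence intervals) of each of the 28 synthetase genes tested (y axis), for IFNAR-/-, PRR-/- and WT DCs 4 h after poly IC; filled points passed at an adjusted p under 0.05 (limma). WT and PRR-/- points lie left of 0 for most genes and right of 0 for Wars and Aars, and IFNAR-/- points lie mostly around 0.

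Farsb encodes the beta subunit of the phenylalanyl enzyme and had the largest decrease among members. Its level was 9.48, 10.07 and 10.56 (lowest, median, highest) in WT DCs at 4 h, against 10.24, 11.04 and 11.32 in unstimulated DCs. The WT samples lay low, and only the upper end of their range reached the lowest unstimulated sample. The log2 difference was -0.88 (SE 0.167, adjusted p = 7.15e-05), which is 1.84-fold lower. Farsa, which encodes the alpha subunit of the same enzyme, lay near the floor and was detected on 4 of 8 WT arrays, so its difference of -0.15 (adjusted p = 0.0296) covers little range. Gars, for glycine, was at 11.35, 11.64 and 12.21 in WT DCs and at 11.94, 12.45 and 12.98 in unstimulated DCs, and fell by 0.70 on the log2 scale (SE 0.168, adjusted p = 0.00102) with some overlap. Lars, the leucyl enzyme that also serves as a leucine sensor for mTORC1, was at 8.22, 8.44 and 8.70 in WT DCs, against 8.67, 9.02 and 9.46 in unstimulated DCs. Only one WT sample reached into the unstimulated range, and Lars fell by 0.65 (SE 0.0846, adjusted p = 3.13e-07). Qars, for glutamine, had 10.14, 10.20 and 10.56 in WT and 10.55, 10.82 and 11.11 in unstimulated DCs, so that the ranges just touched, and fell by 0.59 (SE 0.0904, adjusted p = 3.92e-06).

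Mars (methionine), Eprs (the joined glutamyl and prolyl enzyme), Sars (serine) and Iars (isoleucine) also fell, by 0.50, 0.48, 0.46 and 0.45 log2 units. The Sars samples did not overlap between WT and unstimulated DCs. Of the enzymes of the multi-tRNA synthetase complex, 5 of 7 tested fell (Eprs, Iars, Lars, Mars and Qars), and Kars and Rars did not pass. Kars, Hars, Vars, Rars, Tars and Nars had differences between -0.10 and 0.14 that did not pass.

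Aars moved against most of its family. It was at 10.27, 10.60 and 11.04 in WT DCs at 4 h, against 9.57, 9.97 and 10.09 in unstimulated DCs. All 8 WT samples lay above all 8 unstimulated samples. The log2 difference was 0.69 (SE 0.109, adjusted p = 6.37e-06), or 1.61-fold. Wars was at 8.67, 8.96 and 9.48 in WT DCs, against 8.08, 8.21 and 8.68 in unstimulated DCs, and only the ends of the ranges met. Wars rose by 0.75 (SE 0.129, adjusted p = 1.87e-05), or 1.68-fold. All 4 Wars probes rose, by 0.55 to 0.94.

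**Figure D2:**
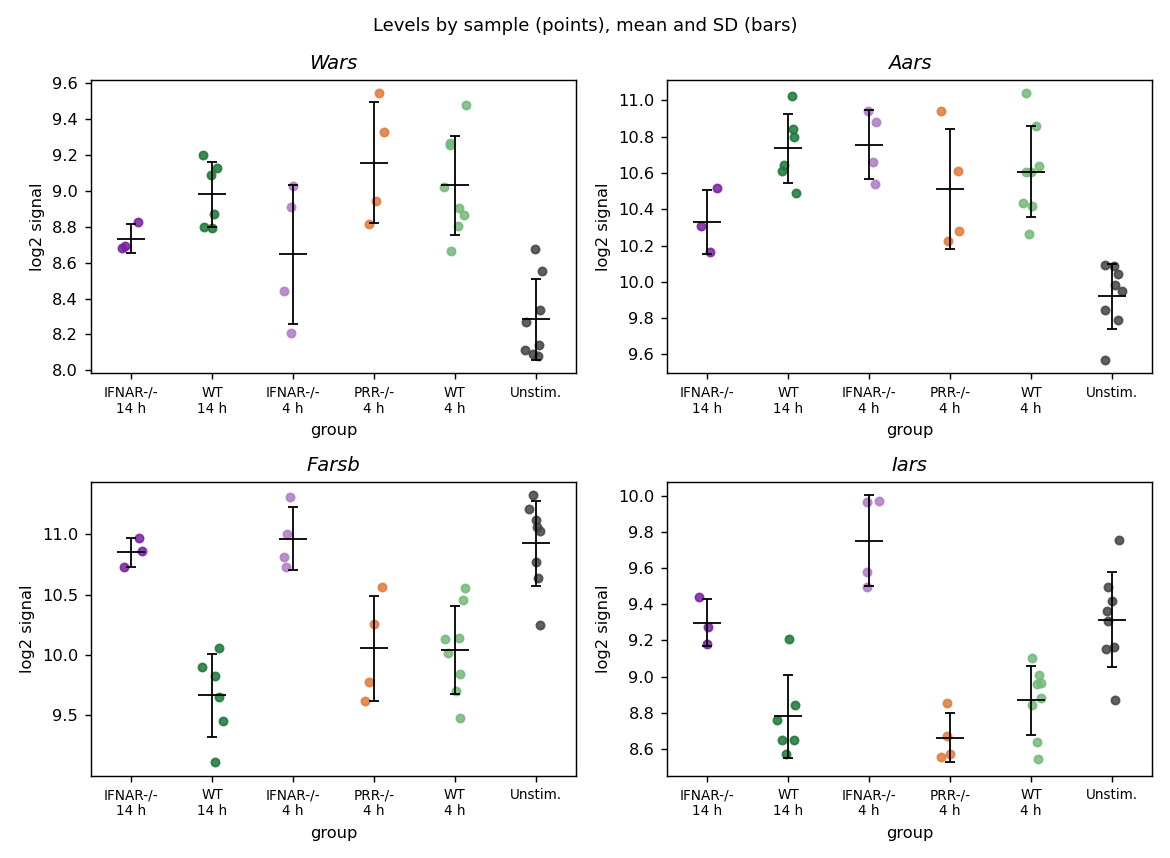
Log2 signal (y axis) of Wars, Aars, Farsb and Iars in every sample (points) by group (x axis), with mean and SD (bars). In WT DCs Wars and Aars lie above unstimulated DCs at both times and Farsb and Iars lie mostly below, whereas in IFNAR-/- DCs Farsb lies near the unstimulated level at both times.

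Among the mitochondrial enzymes, Mars2, the methionyl enzyme, was at 6.49, 6.69 and 6.99 in WT DCs at 4 h and at 7.03, 7.35 and 7.54 in unstimulated DCs. The groups did not overlap, and Mars2 was detected on 4 of 8 WT and 9 of 9 unstimulated arrays. It fell by 0.64 (SE 0.0965, adjusted p = 2.82e-06). Iars2 was at 7.30, 7.42 and 7.80 in WT DCs, against 7.78, 8.17 and 8.33 in unstimulated DCs, and fell by 0.58 (adjusted p = 2.52e-05) with little overlap. Vars2, for valine, was at 7.81, 8.17 and 8.56 in WT DCs, against 8.38, 8.74 and 9.18 in unstimulated DCs. It fell by 0.53 (adjusted p = 0.00749), with more overlap between the groups.

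Fars2, Rars2, Ears2 and Lars2 fell by 0.46, 0.44, 0.35 and 0.34, and Sars2 by 0.18. Rars2 samples did not overlap between the groups. Aars2, Pars2 and Wars2 were detected on 0 of 8 WT arrays at 4 h and on 8, 6 and 8 of 9 unstimulated arrays. Their levels in WT DCs are the detection limit, so they were at least 1.10-fold, 1.06-fold and 1.14-fold lower there, each lower bound with an adjusted p of 0.0204, 0.0179 and 0.00144.

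The promoter windows of Aars, Gars, Iars and Farsb are printed because Aars rose while Gars and Farsb had the largest decreases and Iars differed most between IFNAR-/- and PRR-/- DCs. Each runs from 250 bases before to 50 bases after the annotated start (RefSeq, GRCm38.p6), 5′ to 3′ on the gene's strand. Capitals mark the core of the amino acid response element, TGATGNAAN, on either strand, where N is any base.
Aars (chr8:111033592-111033891, plus strand): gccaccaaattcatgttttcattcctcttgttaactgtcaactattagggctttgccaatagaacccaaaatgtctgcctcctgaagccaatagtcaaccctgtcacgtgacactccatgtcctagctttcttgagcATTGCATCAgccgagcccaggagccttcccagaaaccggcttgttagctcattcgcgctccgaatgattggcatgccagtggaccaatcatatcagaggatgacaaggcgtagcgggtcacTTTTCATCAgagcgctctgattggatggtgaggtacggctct
Gars (chr6:55037751-55038050, plus strand): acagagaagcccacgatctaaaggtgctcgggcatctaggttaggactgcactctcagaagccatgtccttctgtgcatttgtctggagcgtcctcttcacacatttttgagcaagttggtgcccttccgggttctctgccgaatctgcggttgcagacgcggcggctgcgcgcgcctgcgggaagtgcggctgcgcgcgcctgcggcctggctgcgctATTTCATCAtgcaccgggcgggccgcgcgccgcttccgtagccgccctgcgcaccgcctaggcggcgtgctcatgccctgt
Iars (chr13:49681880-49682179, plus strand): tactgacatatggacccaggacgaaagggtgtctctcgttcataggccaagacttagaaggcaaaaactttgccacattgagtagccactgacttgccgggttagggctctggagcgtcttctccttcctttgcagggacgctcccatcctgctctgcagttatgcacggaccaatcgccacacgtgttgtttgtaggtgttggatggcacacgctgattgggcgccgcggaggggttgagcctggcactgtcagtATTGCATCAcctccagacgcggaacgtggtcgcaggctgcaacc
Farsb (chr1:78488848-78489147, minus strand): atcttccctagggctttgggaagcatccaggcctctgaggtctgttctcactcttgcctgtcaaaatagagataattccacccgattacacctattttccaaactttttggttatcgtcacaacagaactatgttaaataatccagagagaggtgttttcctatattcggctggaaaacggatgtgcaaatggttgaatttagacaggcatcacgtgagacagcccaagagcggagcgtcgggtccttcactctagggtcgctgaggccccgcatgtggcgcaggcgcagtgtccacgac

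Windows were at hand for 13 of 20 cytosolic and 14 of 16 mitochondrial genes. The core was found in 5 cytosolic windows (Aars, Gars, Iars, Tars and Yars) and in 0 mitochondrial windows, against 3.95% of 32851 windows of all genes. Aars held it at positions -113 and 9 counted from the start, Gars at -31 and Iars at 7, and all of these matches lie on the opposite strand. Genes with the core thus included one that rose in WT DCs (Aars), some that fell (Gars, Iars) and one that did not pass (Tars). Of the interferon-related letters, the GAS element TTCNNNGAA was found in the windows of Aars and Kars (2 of 13 cytosolic) and of Nars2 (1 of 14 mitochondrial), against 8.3% of all windows. The ISRE core, GAAANN followed by GAAA, was found in Qars (1 of 13 cytosolic) and in 0 of 14 mitochondrial windows, against 3.44% of all windows. Wars had no window here. A match describes the letters of the window and not a bound site.

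The second question was whether a DC needs its own poly IC receptors for these changes. In PRR-/- DCs at 4 h, 14 of the 28 genes fell and 2 rose against unstimulated DCs, where 24.2% and 13.1% of all genes did. Of the cytosolic enzymes without Wars, 8 fell and 1 rose (median -0.29), and 6 of 11 mitochondrial enzymes fell (median -0.40). Farsb was at 10.56, 9.62, 9.78 and 10.26 in the 4 PRR-/- samples, 0.87 below the unstimulated mean (adjusted p = 0.00121). Gars, at 12.07, 11.34, 11.18 and 12.02, fell by 0.77 (adjusted p = 0.00361). No member passed 2-fold, against 7.28% of all genes. Wars, at 8.94, 9.55, 9.33 and 8.81, lay above every unstimulated sample and rose by 0.88 (SE 0.157, adjusted p = 5.9e-05).

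PRR-/- and WT DCs at 4 h did not differ in any of the 28 genes at an adjusted p under 0.05 (limma), where 0.583% of all genes did. None reached an unadjusted p under 0.05, and the methods' t-test called 0 as well. The comparisons of both genotypes with unstimulated DCs share those unstimulated samples. Red pulp macrophage markers were higher in PRR-/- than in WT DCs for C1qc (1.34), Hmox1 (1.28), Spic (1.10), Mertk (0.88), C1qa (0.76) and Fcgr1 (0.58). C1qb, Axl, Slc40a1 and Vcam1 did not pass. The part of these markers in the comparison was not tested. Of the 28 genes, Iars was farthest apart, at 8.85, 8.67, 8.57 and 8.55 in PRR-/- DCs. In WT DCs it was at 8.54, 8.92 and 9.10 (lowest, median, highest). The PRR-/- values lay inside the WT range, and the difference was -0.21 with a 95% confidence interval of -0.48 to 0.06. Fars2 differed by -0.14 (-0.36 to 0.08) and Wars by 0.13 (-0.20 to 0.45). The interval ran from -0.41 to 0.43 for Farsb and from -0.23 to 0.20 for Lars, and for Mars from -0.55 to 0.35. The WT decrease was 0.88, 0.65, 0.50 and 0.45 for Farsb, Lars, Mars and Iars. Its full loss in PRR-/- DCs would be a positive difference of that size. Each value lies above the upper end of its interval, but it comes from the same WT samples and has its own error. A partial loss, such as one up to 0.43 for Farsb or 0.35 for Mars, lies inside the interval.

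The third question was whether the changes need the type I IFN receptor on the DC itself. Without it most of the decrease was not seen. In IFNAR-/- DCs at 4 h, 1 of 28 genes fell and 3 rose against unstimulated DCs, where 11% and 6.97% of all genes did, and 0 passed 2-fold, where 2.96% did. The medians were 0.06 over the cytosolic enzymes without Wars and -0.04 over the mitochondrial ones. Aars rose as in WT DCs, at 10.66, 10.88, 10.94 and 10.54, all above the highest unstimulated sample, with a difference of 0.84 (SE 0.134, adjusted p = 3.93e-05). Iars rose by 0.44 (adjusted p = 0.0186) and Ears2, the mitochondrial glutamyl enzyme, by 0.41 (adjusted p = 0.00459). Fars2 was the one that fell, by 0.50 (adjusted p = 0.000977), at 9.76, 9.61, 9.48 and 9.37 against 9.80 to 10.28 in unstimulated DCs. With the replicate number as a block, which pairs these groups, Iars and Ears2 no longer passed and the counts were 1 higher and 3 lower. Wars had a difference of 0.36 that did not pass (adjusted p = 0.119), with samples at 8.44, 8.91, 9.03 and 8.21 that spread across the unstimulated and WT ranges.

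Set directly against WT DCs at 4 h, 16 of 28 genes were higher and 0 lower in IFNAR-/- DCs, where 16.1% and 9.75% of all genes were. They comprised 9 of 16 cytosolic and 7 of 11 mitochondrial enzymes, with medians of 0.29 and 0.37 against 0.02 over all genes. Among genes detected on every array, 21.6% were higher and the median was 0.13. None reached 2-fold, as 4.62% of all genes did. With the replicate number as a block 13 passed, and Aars2, Lars2 and Nars were lost. All 16 still passed with the sets of resembling 4 h samples as a block.

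Farsb was at 11.31, 10.81, 10.72 and 11.00 in IFNAR-/- DCs, each above the highest WT sample at 10.56. The difference was 0.92 (SE 0.205, adjusted p = 0.000993), or 1.89-fold. Iars, at 9.97, 9.58, 9.97 and 9.50, lay above the WT range of 8.54 to 9.10 without overlap, and differed by 0.89 (SE 0.131, adjusted p = 5.5e-06). Gars, at 12.79, 12.42, 12.23 and 12.57, lay above the WT range of 11.35 to 12.21 and differed by 0.78 (SE 0.206, adjusted p = 0.005). Ears2, Eprs and Mars followed with 0.76, 0.76 and 0.61. The others that passed were Lars, Vars2, Rars2, Iars2, Mars2, Sars, Lars2, Qars and Nars, between 0.54 and 0.23, and Aars2, which was detected on 0 of 8 WT arrays and was at least 1.13-fold higher. Of the members detected on every array, 9 of 14 cytosolic enzymes without Wars and 5 of 6 mitochondrial enzymes were higher. Groups did not overlap for 9 of the 28 genes, against 18.8% of all genes.

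Fars2, Sars2, Farsa, Pars2 and Wars2 fell in WT DCs but did not pass as higher in IFNAR-/- DCs. Of these, Farsa, Pars2 and Wars2 lay near the detection limit. Conversely, Nars was higher in IFNAR-/- DCs although its decrease in WT DCs did not pass. Mean Fars2 levels were 10.06 in unstimulated, 9.60 in WT and 9.56 in IFNAR-/- DCs at 4 h. For Sars2 they were 6.94, 6.75 and 6.75. Aars and Wars, which rose in WT DCs, did not follow this pattern either. Aars differed by 0.15 between IFNAR-/- and WT DCs at 4 h, with a 95% confidence interval that includes 0 (adjusted p = 0.491). Wars was lower in IFNAR-/- DCs by 0.38 (SE 0.157) and did not pass (adjusted p = 0.0729). In a fit over single probes, 2 of its 4 probes were lower at an adjusted p under 0.05, by 0.51 and 0.34. Red pulp macrophage markers were higher in 0 and lower in 3 of 10 genes tested in this comparison, and conventional DC markers passed in 0 of 10. Of the plasma cell markers 3 of 4 were higher (Irf4 by 0.82, Xbp1 by 0.63 and Prdm1 by 0.21), and of the plasmacytoid DC markers 2 of 4 were lower (log2 differences of -3.42 for Bst2 and -1.12 for Tcf4). Their part in the result was not tested.

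**Figure D3:**
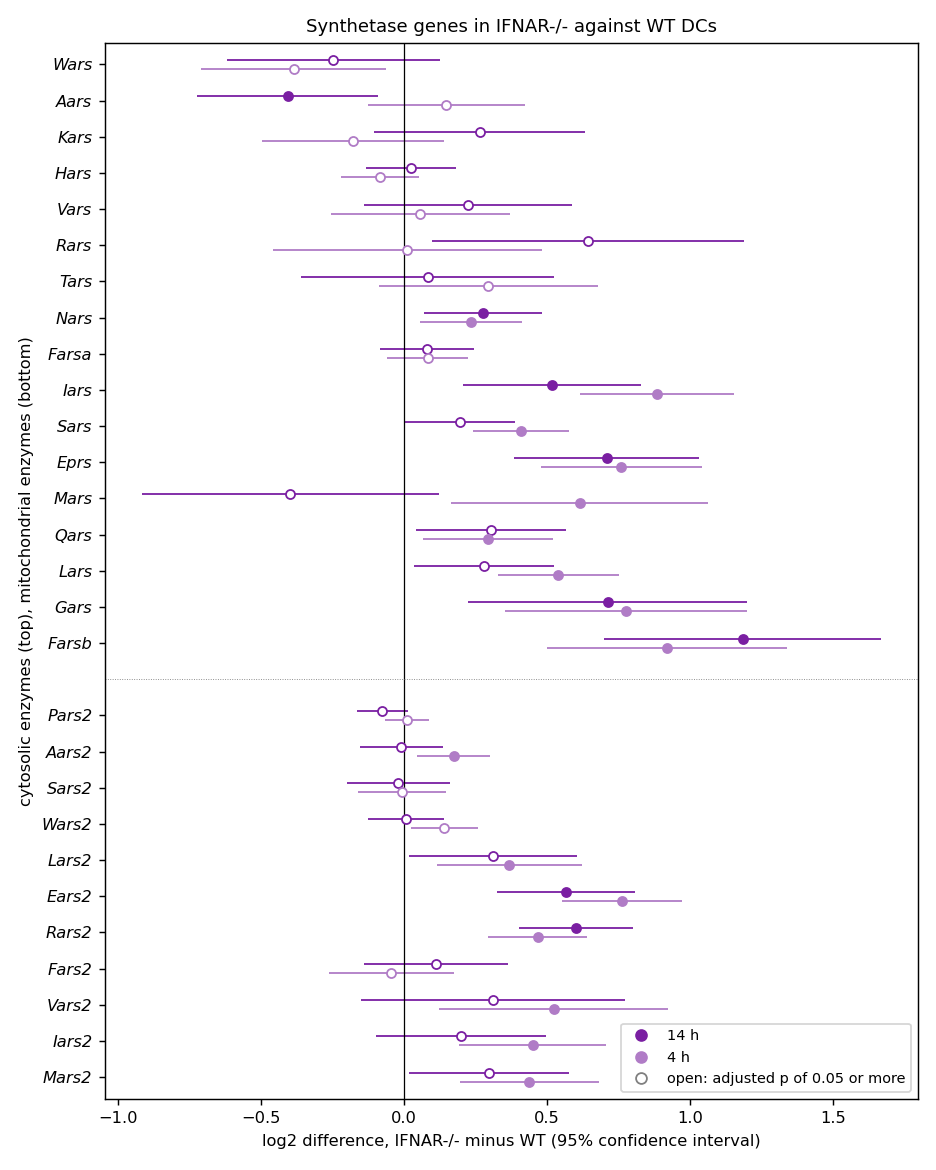
Log2 difference of IFNAR-/- minus WT DCs (x axis, with 95% confidence intervals) for the 28 synthetase genes (y axis) at 14 h and at 4 h after poly IC; filled points passed at an adjusted p under 0.05 (limma). At 4 h 16 genes are filled, all right of 0, and at 14 h 7 are filled right of 0 and Aars left of it.

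IFNAR-/- DCs were also set against PRR-/- DCs. In IFNAR-/- DCs 11 of 28 genes were higher than in PRR-/- DCs at 4 h and Wars was lower, where 12.8% and 8.66% of all genes were. Iars had the largest difference, 1.09 (SE 0.152, adjusted p = 2.9e-06), the only one past 2-fold (5.09% of all genes), with no overlap. Farsb differed by 0.91 (adjusted p = 0.00536) and Gars by 0.85 (adjusted p = 0.00908), and Wars by -0.51 (adjusted p = 0.042). With the replicate number as a block 11 were higher and 2 lower, and Mars2 and Sars were lost.

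At 14 h the WT decrease was still there. In WT DCs 17 of 28 genes were lower than in unstimulated DCs and 2 higher, where 27.7% and 19.6% of all genes were. Of the cytosolic enzymes without Wars, 11 fell and 1 rose (median -0.29), and 6 of 11 mitochondrial enzymes fell (median -0.28), against -0.01 over all genes. Farsb was at 9.11, 9.74 and 10.06 in WT DCs at 14 h, below every unstimulated sample, and fell by 1.26 (SE 0.181, adjusted p = 1.47e-06). It was the only member past 2-fold, a limit that 11% of all genes passed. Gars fell by 0.79 (adjusted p = 0.00062), at 11.37, 11.54 and 12.02. Aars, at 10.49, 10.72 and 11.03, lay above every unstimulated sample and rose by 0.82 (SE 0.118, adjusted p = 1.63e-06), and Wars, at 8.79, 8.98 and 9.20, did so by 0.70 (SE 0.139, adjusted p = 0.000123). One of the 4 Wars probes differed by -0.01 at 14 h, and the other three by 0.36 to 0.74.

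In IFNAR-/- DCs at 14 h, 1 gene fell and 0 rose against unstimulated DCs, where 5.41% and 5.32% of all genes did, and 0 passed 2-fold, where 2.48% did. Fars2, at 9.80, 9.56 and 9.48, was the one that fell, by 0.44 (SE 0.118, adjusted p = 0.0124), and it no longer passed without IFNAR-/- replicate 2 or 3. Wars and Aars differed by 0.45 and 0.41 and did not pass (adjusted p = 0.101 and 0.0771), although all samples of each lay above the highest unstimulated one.

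Against WT DCs at 14 h, 7 of 28 genes were higher in IFNAR-/- DCs and Aars was lower, where 17.9% and 15.3% of all genes were. The share of all 28 members that were higher was 25%, not far above the 17.9% of all genes. Among genes detected on every array, 23.7% were higher. Of the members so detected, 5 of 14 cytosolic enzymes without Wars and 2 of 6 mitochondrial ones were higher. The medians were 0.27 over the cytosolic enzymes without Wars and 0.20 over the mitochondrial ones, against 0 over all genes. Farsb was at 10.97, 10.73 and 10.86 in IFNAR-/- DCs, all above the highest of 6 WT samples at 10.06. It differed by 1.18 (SE 0.237, adjusted p = 0.00024), or 2.27-fold, the only member past that limit (9.63% of all genes). Gars differed by 0.71 (adjusted p = 0.0202) and Eprs by 0.71 (adjusted p = 0.000794), with Eprs at 8.11, 7.95 and 8.18, above the WT range of 7.19 to 7.56. Rars2, Ears2, Iars and Nars were the other four that were higher, by 0.60, 0.57, 0.52 and 0.28. Aars was lower by 0.41 (SE 0.155, adjusted p = 0.0431), at 10.52, 10.31 and 10.16 against 10.49 to 11.03 in WT DCs, with only the highest IFNAR-/- sample inside the WT range. This call depended on the processing. Aars no longer passed with arrays brought to one median (-0.11, adjusted p = 0.652), with neqc (0.0557), with no detection filter (0.0789), with only the groups compared (0.0566), with the methods' t-test (0.0788), or without WT replicate 2, 3 or 6 or IFNAR-/- replicate 2 or 3 (up to 0.197). Without IFNAR-/- replicate 1 the count of passing genes was 5 in place of 8.

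Markers of other cells moved strongly in this 14 h comparison, in which 7 of 10 red pulp macrophage, 5 of 6 monocyte, 8 of 10 neutrophil and 5 of 10 dividing cell markers were higher in IFNAR-/- DCs. The median difference was 1.55 for the macrophage and 1.90 for the monocyte markers. Monocyte markers averaged 10.3 to 10.5 in IFNAR-/- DCs, 7.53 to 9.16 in WT DCs at 14 h and 9.18 to 9.99 in unstimulated DCs. Of the conventional DC markers, 1 was higher and 2 were lower.

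Between the times, WT DCs at 14 h had 7 genes higher and 3 lower than WT DCs at 4 h, where 20.7% and 16.6% of all genes were, and 0 passed 2-fold, where 6.33% did. The share of members that were higher, 25%, lay near the 24.4% of genes detected on every array. The share that was lower, 10.7%, was below theirs of 21.4%. Mars was higher by 0.67 (SE 0.193, adjusted p = 0.00646), at 9.03, 9.68 and 10.74 at 14 h against 8.71, 9.14 and 9.33 at 4 h. Lars, Iars2, Sars and Sars2 were also higher, by 0.34, 0.30, 0.26 and 0.26. Aars2 and Pars2, detected on 0 of 8 WT arrays at 4 h, were at least 1.13-fold and 1.09-fold higher. Rars and Vars were lower by 0.52 and 0.47, and Hars by 0.23. The 4 h samples fall into 3 sets that hold no 14 h sample, and with the sets as a block only Rars and Sars2 still passed, while Lars, Iars2 and Pars2 had differences of -0.001, -0.007 and -0.014. The Rars call depended on the processing in other ways. It was lost with all arrays as samples, arrays brought to one median, no detection filter or only the groups compared. It was also lost with the replicate number as a block, the methods' t-test and in some fits that left out 1 sample. Markers moved in this comparison too, with 5 of 6 monocyte markers lower (log2 differences of -3.41 for Fcgr4 and -2.64 for Cd14), 6 of 10 dividing cell markers lower, and 4 of 10 red pulp macrophage markers lower and 1 higher. Of the conventional DC markers, Itgae, Cd209a, Clec9a and Cd24a were lower (-1.13, -0.96, -0.70 and -0.33). Zbtb46 and Batf3 were higher (0.85 and 0.83), and Dpp4, Itgax, Sirpa and Xcr1 did not pass. Among NK cell markers, Nkg7 and Klrb1c were higher (1.95 and 0.38), and Klrd1, Prf1 and Tyrobp did not pass. The part of all these markers in these differences was not tested. In IFNAR-/- DCs no gene passed between 14 h and 4 h (limma; 7.58% of all genes did), and 4 reached an unadjusted p under 0.05 (Aars, Ears2, Iars and Sars2). With all 36 arrays as samples 1 passed, and with the methods' t-test 0.

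The difference between IFNAR-/- and WT DCs changed with time for Mars alone among the 28, where 9.55% of all genes fell and 7.67% rose by this measure. The Mars difference was 0.61 at 4 h and -0.40 at 14 h, a change of -1.01 (SE 0.335, adjusted p = 0.0349). The second Mars probe changed by -0.43. Mars was at 9.79, 9.38 and 8.94 in IFNAR-/- DCs at 14 h and at 9.40, 9.88, 9.67 and 9.88 at 4 h. At 14 h the probes disagreed, with -0.40 for the main probe and 0.22 for the other, and neither passed. The Mars change no longer passed in 8 of 21 fits that left out 1 sample, namely WT replicate 2 or IFNAR-/- replicate 3, 4 or 5 at 4 h, and WT replicate 1 or 6 or IFNAR-/- replicate 2 or 3 at 14 h, where its value lay between -1.02 and -0.79 (adjusted p up to 0.145). Rars, with 0.63 (adjusted p = 0.25), and Aars, with -0.55 (adjusted p = 0.061), did not pass.

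To see how far the samples of a group agreed, the median over members was taken in each sample, relative to the unstimulated mean, over the 14 cytosolic enzymes without Wars and the 6 mitochondrial ones detected on every array. The cytosolic median was -0.05, -0.04 and 0.14 in IFNAR-/- DCs at 14 h and ran from -0.48 to -0.17 in WT DCs at 14 h. At 4 h it ran from 0.03 to 0.27 in IFNAR-/-, from -0.55 to -0.22 in PRR-/- and from -0.47 to -0.25 in WT DCs, against -0.09 to 0.18 in unstimulated DCs. No WT or PRR-/- sample overlapped the IFNAR-/- or unstimulated samples. The mitochondrial median ran from -0.20 to 0.23 in IFNAR-/- and from -0.71 to -0.23 in WT DCs at 14 h, with no overlap, and from -0.13 to 0.11 in IFNAR-/-, -0.49 to -0.43 in PRR-/- and -0.58 to -0.30 in WT DCs at 4 h. The median over all genes lay between -0.04 and 0 in every sample.

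**Figure D4:**
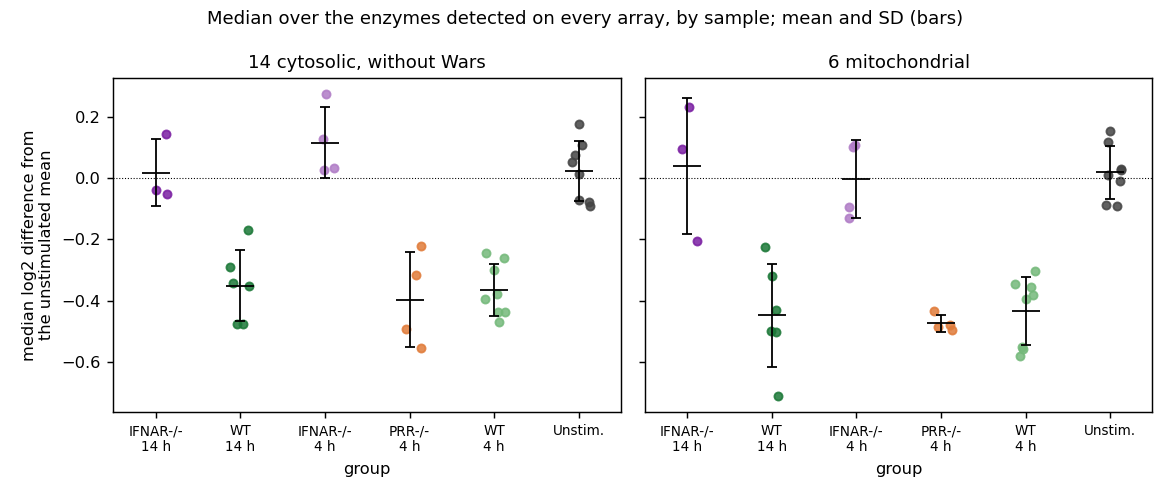
Median log2 difference from the unstimulated mean (y axis) over 14 cytosolic enzymes without Wars and over 6 mitochondrial enzymes, all detected on every array, in each sample (points) by group (x axis), with mean and SD of the samples (bars). WT samples at both times and PRR-/- samples lie below 0, and IFNAR-/- samples lie around 0.

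**Figure D5:**
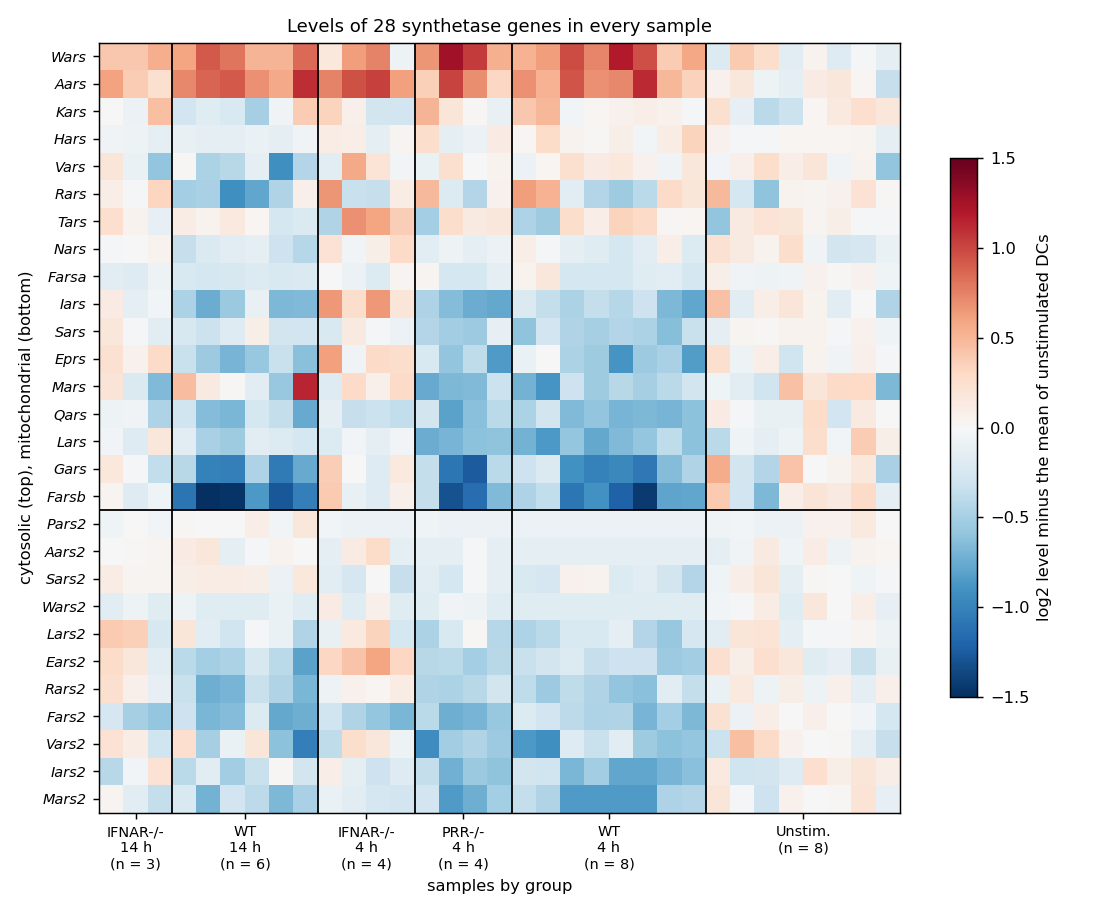
Log2 level of the 28 synthetase genes (rows) in each of the 33 samples (columns, by group) minus the mean of the unstimulated samples, in colour from -1.5 (blue) to 1.5 (red). Wars and Aars are red in most stimulated samples, and Farsb and Gars are bluest in WT and PRR-/- samples.

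Samples at 4 h resembled each other across groups in 3 sets, and the directions were looked at within each set. Of the 22 genes that passed in WT against unstimulated DCs, 21, 22 and 20 kept their direction within the sets. Of the 16 that were higher in IFNAR-/- than in WT DCs, 16, 16 and 15 did. The sets hold 2, 4 and 2 WT samples, and 1, 2 and 1 samples each of unstimulated and of IFNAR-/- DCs. The genes were picked on these same samples and the sets by resemblance in these data. Keeping direction is therefore no independent check. Among the 11 members with several kept probes, all probes of a gene had the same sign in 11 of 11 genes in WT against unstimulated DCs at 4 h and in 9 of 11 in IFNAR-/- against WT DCs at 4 h, where Pars2 and Vars differed.

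Genes that work with the synthetases were taken as lists, whose counts in WT DCs at 4 h stand against 29.6% lower and 16.9% higher over all genes. All 3 complex scaffolds fell in WT DCs at 4 h: Aimp2 by 0.63 (adjusted p = 0.000175), Eef1e1 by 0.56 and Aimp1 by 0.34. In IFNAR-/- DCs Aimp2 and Eef1e1 were higher than in WT DCs at 4 h, by 0.61 and 0.92, and all 3 were higher at 14 h, by 1.08, 1.25 and 0.78 for Aimp2, Eef1e1 and Aimp1. Of 5 cytosolic translation factors (the eEF1B subunits Eef1b2, Eef1d and Eef1g, which recharge the carrier of aminoacyl-tRNA, with Eef2 for translocation and Eif5a for peptide bond formation), 3 fell in WT DCs at 4 h and all 5 at 14 h. Eef1b2, Eef1g and Eef1d fell by 0.71, 0.59 and 0.54 at 4 h. Of 13 partners in mitochondrial translation, 6 fell and 1 rose at 4 h, with a median of -0.25. They included Gatc (-0.84) and Qrsl1 (-0.67), subunits of the amidotransferase that completes glutaminyl-tRNA, the release factor Mtrf1 (-0.60) and the elongation factor Tsfm (-0.58).

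Among 6 genes of tRNA handling, Elac2, which trims tRNA ends, rose by 0.62, and Sephs2 and Dtd1 fell by 0.59 and 0.30 in WT DCs at 4 h. Of 9 genes of eIF2 and its kinases, 5 fell and 1 rose. The one that rose, by 2.50, was Eif2ak2, the interferon-inducible kinase PKR that phosphorylates eIF2, and among those that fell were Eif2b1, Eif2b4 and Eif2b5, subunits of the exchange factor eIF2B, by 0.59, 0.47 and 0.42. In IFNAR-/- against WT DCs at 4 h Eif2ak2 was lower by 3.29 and Eif2b1 higher by 0.60.

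The amino acid response list (18 tested) split in WT DCs at 4 h, with 4 higher and 1 lower and a median of 0.09. Nupr1 rose by 2.09, Ddit4, an inhibitor of mTORC1, by 1.42, Cebpb by 0.91 and Mthfd2 by 0.67. Atf4 itself differed by -0.41 (adjusted p = 0.0579) and Asns, the asparagine synthetase, by 0.40 (adjusted p = 0.0613). In IFNAR-/- DCs at 4 h, 6 of the 18 rose and 1 fell against unstimulated DCs. Asns was among them with 1.00 (adjusted p = 0.00125), and in IFNAR-/- DCs it was higher than in WT DCs by 0.59 (adjusted p = 0.0422). The cystine transporter Slc7a11 likewise rose in IFNAR-/- DCs, by 1.21, and was 1.13 above WT DCs. Of 11 amino acid transporters, 3 fell and 0 rose in WT DCs at 4 h (limma, median 0), a share that fell near that of all genes. Those that fell were Slc38a2 (-0.78), Slc7a6 (-0.49) and Slc1a5 (-0.33). Slc7a6 was detected on 1 of 8 WT arrays at 4 h and Slc1a5 on 4 of 8, so their WT levels lie partly at the detection limit.

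Tryptophan, the amino acid that Wars charges, is also broken down by Ido1, which rose by 1.90 in WT DCs at 4 h. Kmo and Afmid of the same route rose by 0.77 and 0.22, and Haao fell by 1.09. Ido1 was 2.06 lower in IFNAR-/- than in WT DCs at 4 h. All 8 IFN-inducible signalling genes tested rose in WT DCs at 4 h, led by Cxcl10 (6.53), Isg15 (4.74), Gbp2 (4.68) and Irf7 (4.49), and in IFNAR-/- DCs 7 of them lay below WT DCs at that time. Of 15 Myc and growth genes, 6 fell and 2 rose in WT DCs at 4 h, with a median of -0.36. The nucleolar genes Fbl and Nop58 fell by 1.03 and 1.00 and the initiation factor Eif4a1 by 0.82, while Max, the partner of Myc, rose by 1.59. In IFNAR-/- against WT DCs 8 of the 15 were higher and 1 was lower.

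The genes most like Wars over the 33 samples, by Pearson correlation of log2 levels, were Stat6 (0.91), Ticam1 (0.90), Mon1b (0.88), Mvp (0.88) and Irf5 (0.87). Among the other members Aars was closest (0.76), and Mars2, Gars and Farsb were most opposed (-0.82, -0.80 and -0.80). These values describe samples that share their groups and arrays.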

How the data were processed

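RNA of sorted spleen DCs was measured on 36 Illumina mouseRef-8 bead arrays. Per-probe intensity was taken from the non-normalized BeadStudio export that the authors deposited, together with its detection p-value, also deposited. A table of log2 values that the authors deposited after flooring at background, quantile normalization and centring on the median in GeneSpring served as an alternative. Signals below each array's lowest signal detected at p under 0.05 (74.4 to 107.6) were raised to it, transformed to log2 and quantile normalized. Probes detected on at least 3 arrays were kept (14202 of 25697), and the brightest of the probes kept (highest mean log2 value) stood for its gene, giving 9606 genes. Of all probes, 23978 had one gene symbol and 1719 none. Between 10428 and 12326 probes were detected per array, and the number of arrays per group limits the precision.

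Arrays 1 and 2 of the unstimulated, PRR-/- 4 h and IFNAR-/- 4 h groups had a median absolute difference of 0.0964 to 0.107 log2 units, against 0.152 to 0.698 in 99 other pairs within groups. Each such pair was averaged and counted as 1 sample. One linear model over 33 samples with a mean per group was fitted (limma 3.58.1 in R 4.3.3), and 12 comparisons were tested with Benjamini-Hochberg adjustment over 9606 genes. The script was tested on simulated data.

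Replicate numbers paired the samples for IFNAR-/- against unstimulated, PRR-/- against WT, IFNAR-/- against WT and IFNAR-/- against PRR-/- DCs at 4 h, where the deviations of all 4 same-numbered pairs correlated at 0.402 to 0.869, 0.224 to 0.908, 0.129 to 0.897 and 0.365 to 0.860. The pairing comes from the numbers in the labels and this check. It is not exact for pairs with WT DCs. Replicate 5 of WT DCs fell in another of the 3 sets of resembling 4 h samples than replicate 5 of PRR-/- and IFNAR-/- DCs.

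The members and lists were chosen with earlier results of these data known. Full values were given for Wars, for the 5 other cytosolic and 3 mitochondrial genes with the largest passing change in WT DCs at 4 h, for up to 3 genes in each other comparison, for up to 4 genes of each list, and for the 5 genes most correlated with Wars. Other genes named with values (such as Atf4, Asns and Slc7a11) were picked after their values were seen. Marker lists also covered T, B, NK, plasma, plasmacytoid and erythroid cells. Alternatives were neqc, arrays brought to one median, the authors' table, no floor with an offset of 16, no detection filter or at least 18 arrays, the mean of all probes, all arrays as samples, only the groups compared, the methods' t-test, other thresholds, blocks by replicate number or by resembling sets, and leaving out each sample. A protein comparison of paired enzymes was not run.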

Additional observations from a re-analysis of the deposited data

Results flagged for a closer look

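In groups of 4 to 8 samples, 5 values of members stood far from the rest of their group, among 116 groups of values checked, a rate that chance alone gives in about 1 group of 20. Sars was at 8.30 in replicate 4 of WT DCs at 14 h, with the nearest other sample at 8.01. Sars2 was at 6.85 in replicate 5 of the same group, with the nearest at 7.03. Tars, the threonyl enzyme, was low in the averaged arrays 1 and 2 of PRR-/- DCs at 4 h, at 6.79 with the nearest at 7.43, and in those of unstimulated DCs, at 6.71 with the nearest at 7.27. Both Tars samples fall in the same set of resembling samples, so these flags may not be independent. Vars was at 9.28 in replicate 9 of unstimulated DCs, with the nearest at 9.82.

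The difference between IFNAR-/- and WT DCs was not the same at 14 h and at 4 h for Mars, by a test of the difference itself (interaction of -1.01 on the log2 scale, limma, adjusted p = 0.0349). The mean Mars level at 14 h was 9.37 in IFNAR-/- against 9.77 in WT DCs. At 4 h it was 9.71 in IFNAR-/- against 9.09 in WT DCs. These levels are those of the main Mars probe, on which WT DCs at 14 h also had the widest spread (SD 0.59). On the second probe the spread of WT DCs was smaller at 14 h than at 4 h. There IFNAR-/- DCs lay above WT DCs at 14 h too, although the change with time had the same sign. The Mars change no longer passed in some fits that left out 1 sample.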

How the results depend on the processing

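Over 2915 recomputed values of members that had passed, 2530 kept direction and threshold, 382 kept direction only and 3 reversed, all in WT DCs at 14 h against 4 h with the sets of resembling 4 h samples as a block (Iars2, Lars and Pars2). Those sets hold no 14 h sample. Past the 2-fold limit the counts were 0 in WT, PRR-/- and IFNAR-/- DCs at 4 h and IFNAR-/- DCs at 14 h, 1 in WT DCs at 14 h (all against unstimulated), 0 for IFNAR-/- against WT at 4 h and WT at 14 h against 4 h, and 1 each for IFNAR-/- against PRR-/- at 4 h and against WT at 14 h. At an adjusted p under 0.01 they were 10 for IFNAR-/- against WT at 4 h, 5 at 14 h, and 0 for IFNAR-/- at 14 h against unstimulated DCs and for the change with time. Without the detection filter IFNAR-/- against WT at 4 h gave 10 and the change with time 0. The methods' t-test gave 6 for IFNAR-/- against PRR-/- and 5 for IFNAR-/- against WT at 14 h, and it was not run for the change with time. For the change with time, the mean of probes gave 3, all arrays 2 and only the groups compared 0. All arrays as samples gave 1 for IFNAR-/- at 14 h against 4 h.

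With each array brought to one median, the median of all genes was -0.28 in WT DCs at 4 h against unstimulated DCs, 13.9% of calls were higher in place of 36.4%, and 2 members rose and 23 fell. Relative to that shift the medians were -0.42 (cytosolic) and -0.55 (mitochondrial), against -0.28 and -0.33. The share of higher calls was 14.3% in place of 35.1% in PRR-/- and 17.9% in place of 38.7% in IFNAR-/- DCs at 4 h, and 79.6% in place of 49.6% in IFNAR-/- DCs at 14 h, against unstimulated DCs. It was 79.4% in place of 62.3% for IFNAR-/- against WT at 4 h, 75.3% in place of 59.7% against PRR-/-, and 73.1% in place of 53.9% against WT at 14 h. It was 84.2% in place of 55.6% for WT at 14 h against 4 h and 95.9% in place of 65.2% for IFNAR-/- at 14 h against 4 h. The counts of members were 2 for IFNAR-/- at 14 h against unstimulated DCs, 15 for IFNAR-/- against WT at 14 h and 3 for IFNAR-/- at 14 h against 4 h. The share of all genes called in these fits is not given here, so the counts are not a result about the members.

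With the replicate number as a block, 4 passed for IFNAR-/- against WT at 14 h, 2 for WT at 14 h against 4 h, and 0 for IFNAR-/- at 14 h against unstimulated DCs and for the change with time. The numbers pair no samples in these comparisons, since correlations ran down to -0.33. With the sets as a block, 6 passed for IFNAR-/- at 14 h against unstimulated DCs, 14 for IFNAR-/- against WT at 14 h, 4 for WT at 14 h against 4 h and 4 for the change with time. For the fits with a block, too, the share of all genes called is not given here. A higher or lower count there is not a result about the members. Where no value shows the cause of a change, the cause was not tested.

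Leaving out 1 sample, the counts ran from 20 to 22 in WT, 15 to 17 in PRR-/- and 4 to 5 in IFNAR-/- DCs at 4 h, 17 to 19 in WT and 0 to 1 in IFNAR-/- DCs at 14 h, all against unstimulated DCs. They ran from 11 to 15 for IFNAR-/- against WT at 4 h, 8 to 11 against PRR-/-, 5 to 10 against WT at 14 h, and 8 to 11 for WT at 14 h against 4 h, with 0 throughout for PRR-/- against WT and for IFNAR-/- at 14 h against 4 h. The lowest counts came without IFNAR-/- 4 h replicate 4 (11), PRR-/- replicate 3 or 4 (8) and IFNAR-/- 14 h replicate 1 (5). The change with time ran from 0 to 2, with 0 without WT 4 h replicate 2, IFNAR-/- 4 h replicates 3 or 4, WT 14 h replicates 1 or 6, or IFNAR-/- 14 h replicates 2 or 3. Probes near the detection limit (Farsa, Hars, Aars2, Pars2, Wars2) have little room to fall.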
